A study of Homo sapiens with 12 samples.

Results

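The comparison described here is the effect of siRNA against the DNA sensor cGAS in human fibroblasts depleted of the transcriptional co-activators YAP and TAZ. WI-38 cells, a widely used line of fetal lung fibroblasts, were transfected with siRNAs against YAP, TAZ and cGAS together (the cGAS_YT group, libraries 9 and 10) or with the YAP and TAZ siRNAs and a control siRNA (the YT group, libraries 3 and 4). These are 4 of the 12 libraries of the series, chosen by their labels alone. The deposited table lists 13937 genes, of which 13894 were compared, as log2(CPM + 1), where CPM is a gene's read count scaled to the size of its library. Both groups therefore share the YAP and TAZ siRNAs and differ in the cGAS siRNA, whose place the control siRNA (named siAS in the labels) takes in YT cells. The control group received siAS alone, the cGAS group the cGAS siRNA with siAS, and the STING_YT group an siRNA against STING with those against YAP and TAZ, with 2 libraries in each group. A STING group (the STING siRNA with siAS) entered the fit and the plots only. All cells grew in serum-containing medium and were transfected with a lipid reagent, and the sources used here do not state the time after transfection, the siRNA sequences or the passage number. The titles write the cGAS and STING siRNAs with the suffix 4x, which the labels do not explain, so that each may be 1 siRNA or several. The question, as far as the study is known, is whether the inflammatory expression of fibroblasts that lose YAP and TAZ depends on cGAS.

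cGAS is an enzyme that binds DNA in the cytosol and makes the cyclic dinucleotide cGAMP. cGAMP activates STING on the endoplasmic reticulum, which recruits the kinase TBK1 and switches on interferon genes through IRF3 and inflammatory genes through NF-kB. YAP and TAZ carry mechanical and growth signals to the nucleus, where they act with TEAD factors on genes of growth, the cytoskeleton and the matrix. In fibroblasts YAP and TAZ are known for promoting contractile and matrix genes.

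The 12 libraries held 17790774 to 20650727 reads. A gene listed at 0 may have reached 3 reads by counting error alone, which is 0.142 to 0.17 CPM across the libraries. The YT libraries resembled each other less than the libraries of any other group: their log2 values correlated across genes at r = 0.9869, with 249 genes more than 2-fold apart, against 0.993 and 54 genes for cGAS_YT and 25 to 77 genes in the other groups. The cells expressed fibroblast markers strongly, with a summed level of 29279.6 and 27318 CPM over 11 markers in the YT libraries and 22942 and 26029.6 CPM in the cGAS_YT libraries. Of 24 markers of epithelial, endothelial, blood and other cells, 8 were in the table, and their sum was 103 to 129 CPM in these 4 libraries. EPCAM, PECAM1 and PTPRC, which define epithelial, endothelial and blood cells, were among the 16 not analysed here because no row matched them. Of the 8, the keratins KRT8 and KRT18 and the pericyte marker RGS5 fell (-0.74 ± 0.17, -0.73 ± 0.18 and -1.24 ± 0.20) and KRT19 rose (1.26 ± 0.18) in cGAS_YT cells; without YT replicate 4, 2 of the 8 rose and KRT18 did not pass, and the part of these cells in the results was not tested. The labels do not state whether libraries of a group are separate cultures, and the p-values thus reflect the spread between the libraries at hand, which may be technical. In RNA from whole cultures, fewer cells of a kind and less RNA per cell cannot be told apart.

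With the cGAS siRNA added, 6 of 6 CXC chemokines, 7 of 12 interleukins and related cytokines and 10 of 15 NF-kB effector genes were lower. In these lists 0, 1 and 0 members were higher. Most genes induced by interferon were higher (33 of 37, with 2 lower). So were most members of the contractile (11 of 19), direct YAP/TAZ target (17 of 27) and cholesterol synthesis (20 of 24) lists, with 2, 7 and 1 members lower. In limma with Benjamini-Hochberg adjustment over the 13894 genes that reached 1 CPM in 2 or more libraries, 2848 genes (20.5%) were higher and 2808 (20.2%) lower in cGAS_YT than in YT cells at an adjusted p under 0.05. Of these, 725 and 564 changed by at least 2-fold on the log2(CPM + 1) scale. The median change over all genes was 0. In 4540 genes (32.7%) both cGAS_YT libraries stood above both YT libraries, and in 4591 (33.0%) both stood below. Below, "rose" and "fell" are used for genes past the adjusted p of 0.05, a log2 change is the difference of the group means of log2(CPM + 1), and ± gives its standard error. Counts over gene lists are to be read against these shares of all genes.

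**Figure D1:**
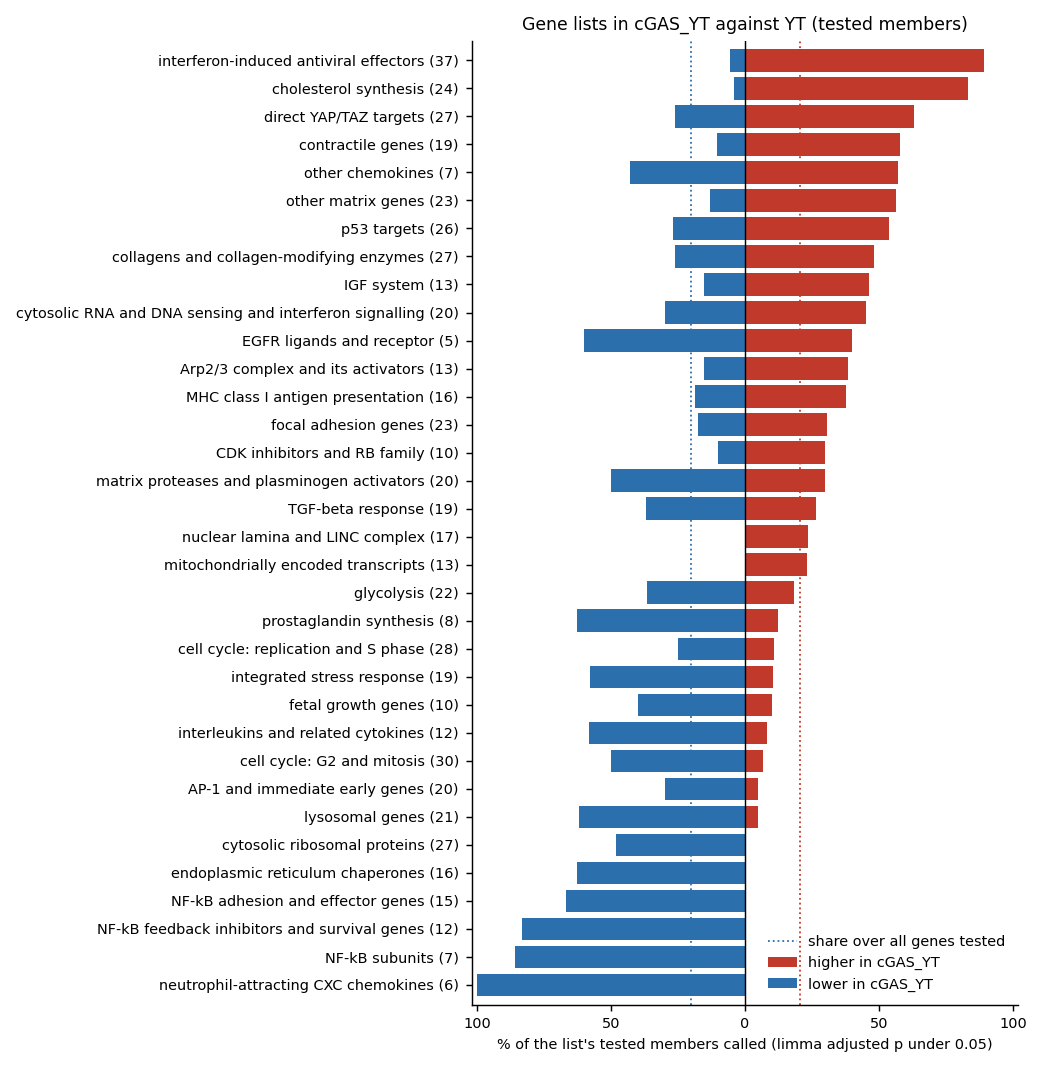
Percent of the tested members of the functional gene lists that were higher (to the right) or lower (to the left) in cGAS_YT than in YT cells at a limma adjusted p under 0.05, with dotted lines at the shares over all tested genes (20.5% and 20.2%). All 6 measured CXC chemokines of the list were lower and 33 of 37 antiviral effectors were higher.

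The targeted genes were read first. The gene for cGAS, listed under its older symbol MB21D1, stood at 9.60 and 6.14 CPM in control, 7.66 and 6.07 CPM in YT and 1.65 and 1.30 CPM in cGAS_YT cells. It fell against YT (log2 change -1.67 ± 0.22, adjusted p = 1.39e-05), with no overlap between the groups. YAP1, at 114 and 105 CPM in control cells, was at 16.3 and 13.02 CPM in YT and 24.6 and 21.7 CPM in cGAS_YT cells, so that both groups were depleted, but the cGAS_YT cells less so (log2 change 0.63 ± 0.13, adjusted p = 0.00109). The gene for TAZ, WWTR1, was at 22.8 and 16.7 CPM in YT and 17.9 and 18.8 CPM in cGAS_YT cells, against 133 and 144 CPM in control. Its log2 change of -0.09 ± 0.12 (adjusted p = 0.601) did not pass with all libraries and was -0.30 (adjusted p = 0.0338) without YT replicate 4. The gene for STING, listed as TMEM173, was at 18.1 and 19.2 CPM in YT and 25.6 and 20.96 CPM in cGAS_YT cells, a log2 change of 0.30 ± 0.17 that did not pass (adjusted p = 0.159).

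The CXC chemokines that attract neutrophils had the lowest median change of the 38 gene lists. All 6 measured members fell, with a median log2 change of -4.62, where 20.2% of all genes fell. CXCL1 (chromosome 4, bases 73869393 to 73871242, GRCh38 with GENCODE 29) was at 496 and 292 CPM in YT and at 5.67 and 2.59 CPM in cGAS_YT cells (log2 change -6.28 ± 0.40, adjusted p = 3.28e-09). Both control libraries lay lower still, at 2.49 and 0.17 CPM. CXCL8 (chromosome 4, bases 73740506 to 73743716), also called interleukin 8, was at 493 and 146 CPM in YT and 4.20 and 3.06 CPM in cGAS_YT cells (log2 change -5.87 ± 0.40). Its YT libraries differed several-fold, and the change was -5.000 without YT replicate 3 and -6.75 without YT replicate 4. CXCL3 went from 68.6 and 42.4 to 1.51 and 0.882 CPM and CXCL5 from 61.1 and 46.6 to 1.70 and 0.934 CPM, both without overlap. CXCL2, at 35.1 and 10.9 CPM in YT cells, was at 0.283 and 0.83 CPM in cGAS_YT cells, a log2 change of -3.76 ± 0.38 that was -2.96 without YT replicate 3 and -4.56 without YT replicate 4. CXCL6 went from 11.4 and 8.13 to 1.42 and 0.726 CPM (log2 change -2.38 ± 0.25). It reached the minimum for testing only with the YT libraries, which favoured a fall in advance. The other 5 members all fell, with a median of -4.66. These 6 genes lie in a cluster on chromosome 4 and share sequence, so reads of CXCL1, CXCL2 and CXCL3 may have been split between them.

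The 6 chemokines also share a short sequence upstream of their start, which is printed here because the group moved together. In the RefSeq promoters of GRCh38.p14 (250 bases before to 50 after a gene's start), a word of the type bound by NF-kB, GGANNTTCC or its reverse complement GGAANNTCC, occurred in all 6. It occurred in 1253 of 27305 promoters (4.59%), in 476 of the 10332 matched genes tested (4.61%), in 110 of the 2164 matched genes that fell (5.08%) and in 13 of the 61 (21.3%) that fell at least 4-fold. The 6 chemokines are themselves among these 13, so the last share is no separate observation. Other lists held the word less often: 4 of 11 matched NF-kB inhibitors and survival genes (36.4%) and 2 of 11 adhesion and effector genes (18.2%). Among interleukins and related cytokines 2 of 8 held it (25.0%). Both strands were searched, and a stretch such as GGAAATTCC matches both forms. Capitals mark the word in each stretch, printed 5′ to 3′ on the gene's strand:
CXCL1, chr4:73869305-73869333, strand +: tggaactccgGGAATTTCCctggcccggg
CXCL2, chr4:74099254-74099282, strand -: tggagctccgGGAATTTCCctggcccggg
CXCL3, chr4:74038749-74038777, strand -: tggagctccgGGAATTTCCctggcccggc
CXCL5, chr4:73998749-73998777, strand -: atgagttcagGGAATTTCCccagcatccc
CXCL6, chr4:73836579-73836607, strand +: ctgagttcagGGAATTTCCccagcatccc
CXCL8, chr4:73740468-73740496, strand +: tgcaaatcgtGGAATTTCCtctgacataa
In each of the 6 the word is GGAATTTCC and begins 77 to 91 bases before the annotated start. CXCL1, CXCL2 and CXCL3 have nearly the same flanks, as do CXCL5 and CXCL6. A match describes these letters and does not show that a factor is bound there.

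Of the 12 measured interleukins and related cytokines, 7 fell and 1 rose, with a median log2 change of -1.51; 3 rose without YT replicate 3. Interleukin 24, a cytokine of the IL-10 family, fell furthest: IL24 (chromosome 1, bases 206897443 to 206904139) was at 112 and 112 CPM in YT and 1.13 and 0.207 CPM in cGAS_YT cells (log2 change -6.14 ± 0.25, adjusted p = 2.73e-11). The fever-inducing interleukins IL1A and IL1B were at 58.1 and 46.9 and at 90.7 and 58.5 CPM in YT cells. In cGAS_YT cells IL1A was at 0.708 and 0.934 CPM and IL1B at 1.65 and 2.23 CPM, log2 changes of -4.87 ± 0.24 and -4.66 ± 0.28. Neither overlapped, and both stayed somewhat above their control levels (0.104 and 0.455 CPM for IL1A and 1.25 and 0.227 CPM for IL1B). TNFSF15, a TNF-related cytokine, fell from 27.1 and 24.9 to 2.08 and 2.85 CPM. IL32 and IL11 also fell (log2 changes -1.98 and -1.68). The granulocyte growth factor CSF3 was at 2.32 and 1.03 CPM in YT and 0.0472 and 0 CPM in cGAS_YT cells. It entered the test only through the YT libraries, which favoured a fall in advance. Without it 6 of 11 members fell (median -1.68). TSLP, an epithelial and stromal cytokine of allergic inflammation, was the member that rose, from 10.9 and 7.67 to 21.2 and 24.8 CPM (1.23 ± 0.19).

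The remaining 4 cytokines of the list did not pass, and for 3 of them the answer depended on which YT library was kept. IL6 was at 11.2 and 0.926 CPM in YT and 3.21 and 1.40 CPM in cGAS_YT cells, and its log2 change of -0.61 ± 0.53 (adjusted p = 0.381) was 0.72 without YT replicate 3 and -1.95 without YT replicate 4, which passed. LIF was at 32.8 and 3.29 CPM in YT and 10.5 and 13.6 CPM in cGAS_YT cells, and its change of 0.11 became 1.60 or -1.38, with the direction turned. CSF1, the growth factor of macrophages, likewise moved from 0.03 to 0.39 or -0.33. For these genes the YT libraries bracket the cGAS_YT libraries, and no direction can be read. IL15 was at 6.82 and 5.25 and 6.52 and 6.69 CPM and did not pass (0.12 ± 0.21).

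Among the other chemokines 4 of 7 rose and 3 fell. CCL2, which attracts monocytes, fell from 149 and 87.6 to 21.4 and 11.3 CPM (-2.80 ± 0.27). CCL5, which attracts T cells, was listed at 0 and 0.206 CPM in YT cells and 9.02 and 3.27 CPM in cGAS_YT cells (2.57 ± 0.35). CXCL11, an interferon-induced ligand of CXCR3, rose from 1.80 and 3.91 to 35.4 and 6.43 CPM (2.15 ± 0.47). CXCL10, another ligand of that receptor, fell from 44.0 and 37.1 to 23.9 and 6.07 CPM (-1.64 ± 0.41, adjusted p = 0.00457). The cGAS_YT libraries differed several-fold in the last 3 genes: without replicate 10 the change of CXCL10 was -0.73 and did not pass (adjusted p = 0.108), and without replicate 9 that of CCL5 was 1.96 and that of CXCL11 was 1 on the log2 scale (3.30 without replicate 10). Without replicate 9, 2 members of the list rose, and without replicate 10, 1 fell.

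PTGS2 (cyclooxygenase 2), which catalyses the committed step of prostaglandin synthesis, was among the 12 genes that fell furthest under the naming rule. PTGS2 (chromosome 1, bases 186671791 to 186680427) was at 749 and 539 CPM in YT and 24.4 and 25.9 CPM in cGAS_YT cells, or 3.90% of the YT level (log2 change -4.61 ± 0.23, adjusted p = 2.79e-10). Control cells held 2.96 and 3.86 CPM, so that cGAS_YT cells stayed above control by 2.57 ± 0.23 on the log2 scale. The prostaglandin E synthase PTGES fell from 70.1 and 92.3 to 14.3 and 12.9 CPM, and the phospholipase PLA2G4A, which frees the arachidonic acid that PTGS2 uses, from 17.6 and 9.21 to 2.74 and 2.28 CPM. PTGS1, the constitutive cyclooxygenase, was at 413 and 401 CPM in YT and rose to 525 and 541 CPM (0.39 ± 0.08). In all 5 of 8 genes of prostaglandin synthesis fell and 1 rose; 3 fell without YT replicate 4 and without either cGAS_YT library.

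Genes of the NF-kB pathway itself fell, from its subunits to its targets. Of its 7 subunits and kinases 6 fell and none rose (1 rose without YT replicate 3), with a median log2 change of -1.01. NFKB1, which encodes p50, was at 163 and 147 CPM in YT and 32.4 and 35.8 CPM in cGAS_YT cells (-2.16 ± 0.11), and RELB and NFKB2, which form the non-canonical dimer, fell (-2.27 ± 0.11 and -1.86 ± 0.11), as did the kinase IKBKB (-1.01 ± 0.12). Of the 12 measured members of the list of NF-kB inhibitors and survival genes, 10 fell, with a median of -1.69. NFKBIA, the inhibitor that holds NF-kB in the cytoplasm, was at 897 and 960.4 CPM in YT, 224 and 186 CPM in cGAS_YT and 203 and 199 CPM in control cells (-2.18 ± 0.09, adjusted p = 4.70e-11). TNFAIP3, the ubiquitin-editing inhibitor A20, was at 215 and 188 CPM in YT, 22.5 and 16.3 CPM in cGAS_YT and 17.1 and 16.99 CPM in control cells (-3.32 ± 0.18). For both genes the cGAS_YT libraries lay far below YT and near control. TNIP1, the partner of A20, and BIRC3, an inhibitor of cell death, fell (-2.35 ± 0.10 and -2.09 ± 0.15).

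Adhesion and effector genes downstream of NF-kB gave 10 of 15 lower and none higher (1 higher without cGAS_YT replicate 10), with a median of -1.44. SOD2, the mitochondrial superoxide dismutase, went from 739.7 and 547 to 93.9 and 62.98 CPM (-3.03 ± 0.15), and ICAM1, a ligand for leukocyte integrins, from 74.5 and 80.9 to 20.2 and 14.4 CPM (-2.12 ± 0.16). MMP3, a matrix protease, fell from 42.05 and 45.5 to 4.44 and 3.17 CPM (-3.23 ± 0.19). The transcription factor IRF1 and the survival gene IER3 also fell (-1.44 ± 0.08 and -1.84 ± 0.11). Each of these genes lay lower in both cGAS_YT libraries than in both YT libraries.

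The EGF receptor and its ligands divided. AREG and EREG, secreted ligands of the receptor, fell from 568 and 492 to 63.8 and 44.2 CPM and from 139 and 87.9 to 25.3 and 15.9 CPM (-3.29 ± 0.17 and -2.40 ± 0.22), and EGFR itself fell from 359 and 305 to 184 and 182 CPM (-0.85 ± 0.10). ERRFI1, a feedback inhibitor of the receptor, rose from 16.5 and 11.3 to 26.3 and 20.5 CPM (0.72 ± 0.15), and of the 5 members 2 rose and 3 fell. Among 20 AP-1 and immediate early genes 6 fell and 1 rose. PHLDA1 went from 1016 and 924 to 338 and 332 CPM, JUNB from 229 and 187 to 77.4 and 88.5 CPM and SPRY4, a feedback inhibitor of growth factor signalling, from 46.3 and 38.1 to 12.4 and 14.1 CPM. In this list 5 members rose without YT replicate 3, 2 without cGAS_YT replicate 9 and none without YT replicate 4 or cGAS_YT replicate 10.

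The 12 genes that fell furthest under the naming rule were, beside the cytokines and PTGS2, C11orf96, G0S2, PLAT and SLC16A6. C11orf96 was at 456 and 495 CPM in YT and 7.08 and 4.98 CPM in cGAS_YT cells (-6.10 ± 0.25). G0S2, an inhibitor of fat breakdown, went from 126 and 76.3 to 4.11 and 2.80 CPM and SLC16A6, a transporter of the monocarboxylate family, from 133 and 92.6 to 7.93 and 3.84 CPM. PLAT, tissue plasminogen activator, fell from 703 and 587 to 34.4 and 33.8 CPM (-4.20 ± 0.10, adjusted p = 4.81e-14) and was below its control level of 253 and 257 CPM. STC1, a secreted glycoprotein hormone, fell from 1513 and 1416 to 197 and 151 CPM (-3.08 ± 0.15), where control cells held 135 and 133 CPM.

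**Figure D2:**
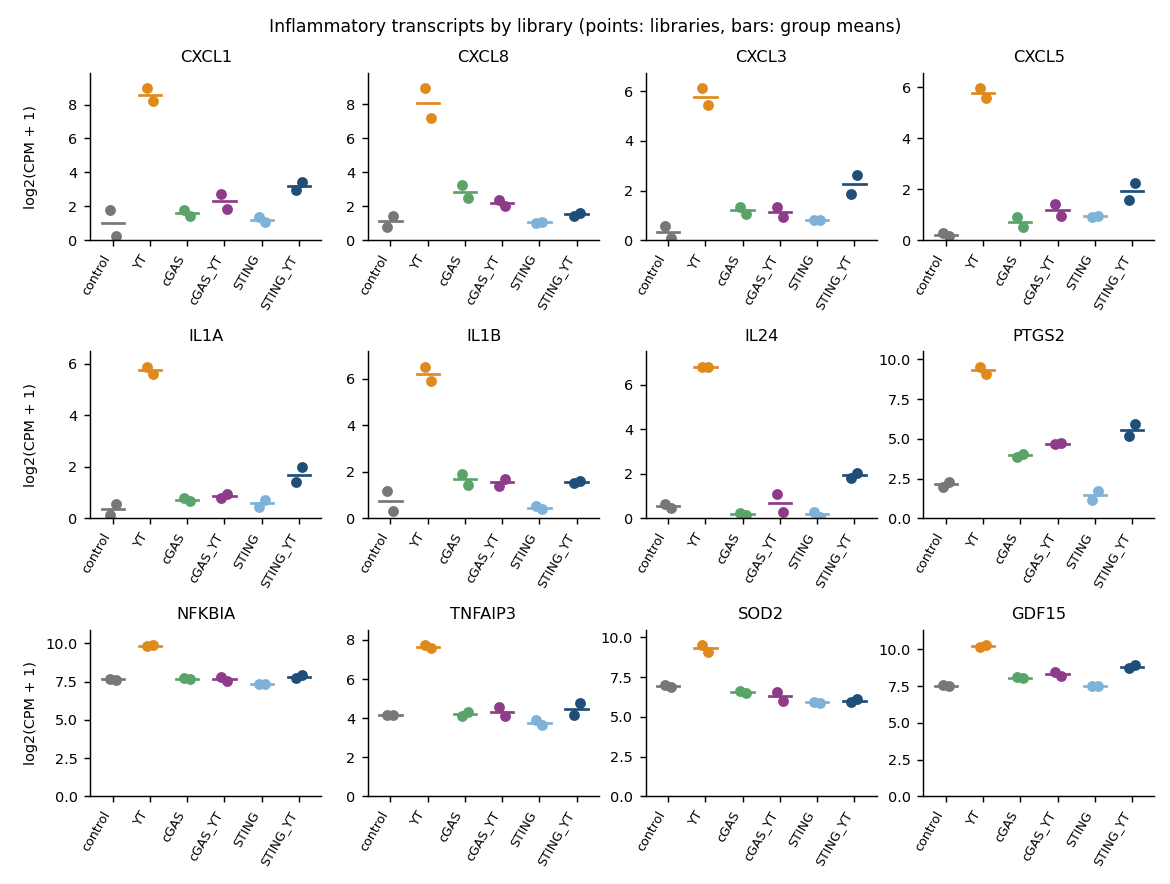
Levels of 12 genes as log2(CPM + 1) in each library of the 6 groups, 2 points per group. The cGAS_YT points of the cytokines, PTGS2, NFKBIA, TNFAIP3, SOD2 and GDF15 lie below both YT points; CXCL1, for example, was at 496 and 292 CPM in YT and 5.67 and 2.59 CPM in cGAS_YT cells.

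Genes induced by interferon moved the other way. Of 37 antiviral effectors 33 rose and 2 fell, with a median log2 change of 2.38, where 20.5% of all genes rose. Their summed level was 3001 and 3627 CPM in YT and 12329.7 and 6843 CPM in cGAS_YT cells. IFI44L (chromosome 1, bases 78619922 to 78646145) was at 12.7 and 14.4 CPM in YT and 610.1 and 345 CPM in cGAS_YT cells (4.99 ± 0.27, adjusted p = 7.11e-10). IFI6, a mitochondrial and endoplasmic reticulum protein that blocks flavivirus replication, reached the highest level of the named members, 3653 and 2317 CPM against 147 and 208 CPM in YT cells (4.05 ± 0.21). RSAD2 (viperin), which makes a chain-terminating nucleotide, was at 0.264 and 1.24 CPM in YT and 144 and 19.1 CPM in cGAS_YT cells (5.004 ± 0.59). None of these 3 genes overlapped between the groups. OAS1 and OAS2, sensors of double-stranded RNA that activate RNase L, rose by 4.09 ± 0.38 and 3.75 ± 0.39, IFIT1, which binds uncapped viral RNA, by 4.24 ± 0.30, and the dynamin-like GTPase MX1 by 3.50 ± 0.41. IFI27, EPSTI1 and the ubiquitin-like modifier ISG15 rose by 3.80 ± 0.26, 3.79 ± 0.27 and 2.38 ± 0.25. IFITM2 and IFITM3, membrane proteins that hinder virus entry, were the members that fell (-0.67 ± 0.15 and -0.62 ± 0.14); they are named here after their values were seen, and neither fell without cGAS_YT replicate 10.

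The cGAS_YT libraries differed in these genes. MX1 stood at 780.4 and 246 CPM in replicates 9 and 10, IFIT1 at 282 and 114 CPM and RSAD2 at 144 and 19.1 CPM, with replicate 9 higher each time. Each library nevertheless exceeded both YT libraries, where MX1 was at 33.7 and 42.5 CPM. Without replicate 9 the change was 2.67 for MX1, 3.59 for IFIT1, 3.34 for OAS1, 3.04 for OAS2 and 3.58 for RSAD2. Without replicate 10 it was 4.33, 4.89, 4.84, 4.45 and 6.43 in the same order. All stayed past the threshold, and 29 members of the list rose without replicate 9 and 35 without replicate 10.

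A word of the interferon response type, GAAANNGAA or its reverse complement TTCNNTTTC, was found in 23 of the 30 antiviral effectors with a RefSeq promoter (76.7%), against 2264 of all 27305 promoters (8.29%). Among the matched genes tested it was in 676 of 10332 (6.54%), in 169 of the 2268 that rose (7.45%) and in 22 of the 91 (24.2%) that rose at least 4-fold. Antiviral effectors of the list, the 5 printed below included, are among these 22. Repeats of the word can overlap one another, as in ISG15. One site is printed for each of 5 strongly raised genes, with the word in capitals, on the gene's strand of GRCh38.p14:
RSAD2, chr2:6865796-6865824, strand +: agcgggaaacGAAAGCGAAgcgttgcggg
IFI44L, chr1:78620365-78620393, strand +: tcctagtgagGAAAAAGAAagttagtggc
EPSTI1, chr13:42992273-42992301, strand -: ctgattctgaGAAACCGAAactcagctgt
ISG15, chr1:1013380-1013408, strand +: tcgggaaaggGAAACCGAAactgaagcca
MX1, chr21:41420559-41420587, strand +: gagcagaaatGAAACCGAAactgaattgt
EPSTI1, ISG15 and MX1 hold the same letters, GAAACCGAA, and RSAD2 and IFI44L other letters of the same type. The division was not strict. The NF-kB type was in 8 of the 91 genes (8.79%) that rose at least 4-fold. The interferon type was in 6 of the 61 (9.84%) that fell at least 4-fold. The promoters of CXCL2, CXCL3, CXCL10 and NFKBIA, which fell, hold both types. Those of CXCL11, LMOD1, HMGCS1, CYP51A1 and CTGF, which rose, hold the NF-kB type alone, and those of IL24, TAPBP and ERAP1, which fell, the interferon type alone. These are examples, and other named genes also go against the division.

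The genes that detect viral RNA and carry the interferon signal were mixed. Of 20 measured, 9 rose and 6 fell. IFNAR1, a chain of the type I interferon receptor, fell from 96.7 and 99.9 to 47.1 and 50.6 CPM (-0.995 ± 0.09), as did IKBKE, a kinase of the interferon and NF-kB pathways (-1.97 ± 0.15), and SOCS3, an inhibitor of cytokine receptors (-1.24 ± 0.15). IFNB1, the interferon that cGAS signalling is best known for, was not analysed here. In the MHC class I pathway 6 of 16 members rose and 3 fell. B2M, the light chain of class I molecules, rose from 3900 and 3238 to 6439 and 4878 CPM (0.66 ± 0.13) and the immunoproteasome subunit PSMB9 from 44.2 and 47.5 to 112 and 64.95 CPM (0.89 ± 0.17). TAPBP and ERAP1, which load and trim peptides, fell (-0.95 ± 0.10 and -1.07 ± 0.13). HLA and IFIT genes share sequence among themselves, so that counts of single members are uncertain.

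Direct targets of YAP and TAZ changed in both directions, more of them upward. Of 27 targets 17 rose and 7 fell, with a median log2 change of 0.79; 4 fell without YT replicate 3. CYR61 (CCN1), the standard reporter of YAP activity, was at 502 and 454 CPM in control, 50.6 and 32.8 CPM in YT and 268 and 259 CPM in cGAS_YT cells (2.66 ± 0.13, adjusted p = 2.68e-10). ANKRD1, a nuclear ankyrin-repeat protein, was at 14.9 and 12.2 CPM in control, 0.475 and 0.978 CPM in YT and 19.8 and 14.01 CPM in cGAS_YT cells (3.37 ± 0.21). CTGF (CCN2) rose from 125 and 76.4 to 207 and 194 CPM (1.03 ± 0.15), still below its control level of 632 and 637 CPM. GADD45A and the TEAD cofactor VGLL3 rose from 55.7 and 51.97 to 203 and 198 CPM and from 16.8 and 13.5 to 72.6 and 63.5 CPM. YAP1 itself was higher in the same libraries, at 24.6 and 21.7 CPM against 16.3 and 13.02 CPM, and its part in these results was not tested.

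Contractile genes of the smooth muscle type rose in 11 of 19 members, against 2 that fell, with a median of 0.68. OXTR, the oxytocin receptor, had the smallest p-value of the list: it stood at 246 and 259 CPM in control, 8.93 and 7.77 CPM in YT and 179 and 163 CPM in cGAS_YT cells (4.20 ± 0.11, adjusted p = 2.16e-13). ACTG2, smooth muscle gamma actin, rose from 160.1 and 153 to 511 and 502 CPM (1.69 ± 0.09) and LMOD1, an actin nucleator of smooth muscle, from 29.6 and 38.4 to 140.3 and 138 CPM (2.01 ± 0.12). ACTA2, smooth muscle alpha actin and the usual marker of myofibroblasts, was at 1753 and 1915 CPM in control, 790.1 and 934 CPM in YT and 2127 and 2241 CPM in cGAS_YT cells (1.34 ± 0.10); it is named outside the rule. MYL6, a myosin light chain, went against its list and fell from 1777 and 2161 to 323 and 339.5 CPM (-2.56 ± 0.10, adjusted p = 1.60e-11). Among focal adhesion genes 7 of 23 rose and 4 fell. The adhesion proteins LIMA1, TNS1 and ACTN4 rose (1.36 ± 0.10, 1.34 ± 0.09 and 1.06 ± 0.09) and BCAR1, a docking protein, fell (-0.97 ± 0.09).

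**Figure D3:**
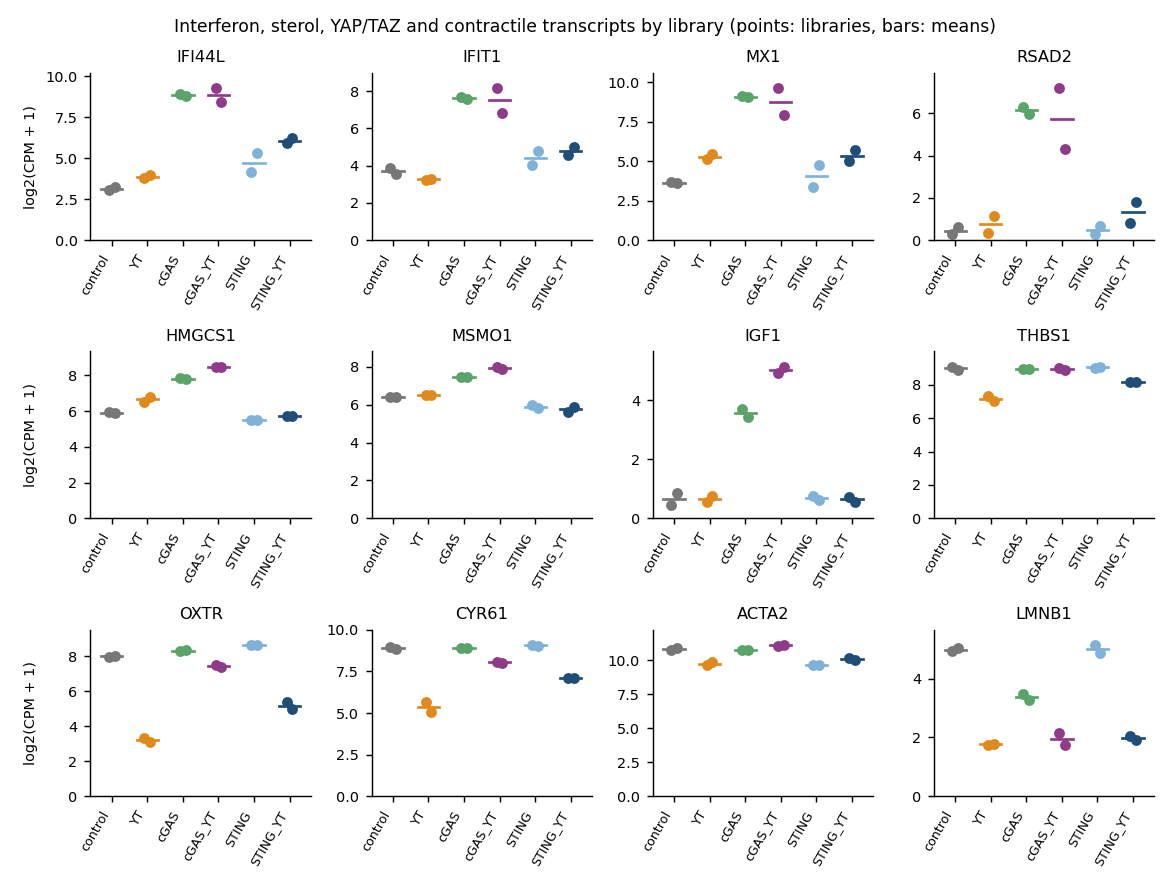
Levels of 12 genes as log2(CPM + 1) in each library of the 6 groups, 2 points per group. Both cGAS_YT points lie above both YT points for the interferon-induced, cholesterol, contractile and YAP/TAZ target genes, as for OXTR (179 and 163 against 8.93 and 7.77 CPM), while LMNB1 did not pass.

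Genes of the nuclear lamina and of branched actin were examined because both are linked to YAP/TAZ loss. LMNB1, the lamin whose loss marks senescent cells, was at 29.6 and 31.4 CPM in control, 2.32 and 2.47 CPM in YT and 3.45 and 2.39 CPM in cGAS_YT cells, and its log2 change of 0.19 ± 0.18 did not pass (adjusted p = 0.43). LMNB2 rose from 33.3 and 32.3 to 55.4 and 48.04 CPM (0.64 ± 0.10), and SUN1 and SYNE1, which link the lamina to the cytoskeleton, rose by 0.87 ± 0.15 and 0.82 ± 0.14. In all 4 of 17 members rose and 0 fell; 3 fell without YT replicate 3 and 1 without cGAS_YT replicate 10. ACTR2, a subunit of the Arp2/3 complex, was at 531 and 540.5 CPM in control, 158 and 130.1 CPM in YT and 137 and 132 CPM in cGAS_YT cells (-0.09 ± 0.09, adjusted p = 0.453), and it was lower without YT replicate 4 (-0.23). Of 13 members of that list 5 rose, 3 without YT replicate 4 or cGAS_YT replicate 9, and 2 fell. ARPC5 rose (0.57 ± 0.08) and WASF2, an activator of the complex, fell (-0.78 ± 0.09).

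Genes of G2 and mitosis fell more often than they rose, while for S phase genes the balance turned with the libraries used. Of 28 replication and S phase genes 3 rose and 7 fell, with a median of -0.18; 5 rose without either YT library, 2 fell without YT replicate 4, and 4 fell without cGAS_YT replicate 10. Of 30 genes of G2 and mitosis 2 rose and 15 fell, with a median of -0.46; 8 fell without cGAS_YT replicate 10. TOP2A, the topoisomerase of dividing cells, was at 309 and 309 CPM in control, 38.8 and 48.9 CPM in YT and 29.7 and 23.6 CPM in cGAS_YT cells (-0.70 ± 0.12). UBE2C and PRC1, needed for exit from mitosis and for the spindle midzone, fell (-1.02 ± 0.17 and -1.11 ± 0.19). RRM2, a subunit of ribonucleotide reductase, fell from 5.86 and 7.10 to 2.88 and 2.85 CPM, while TYMS, thymidylate synthase, rose from 18.2 and 14.5 to 42.2 and 38.1 CPM (1.25 ± 0.12). The inhibitor of cyclin-dependent kinases CDKN1A (p21) was at 1344 and 1686 CPM in YT and 1705 and 1633 CPM in cGAS_YT cells and did not pass (0.15 ± 0.10, adjusted p = 0.276); without YT replicate 4 it was higher (0.31). RB1 and RBL1, of the retinoblastoma family, rose by 1.08 ± 0.21 and 1.26 ± 0.21.

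Targets of p53 divided, with 14 of 26 higher and 7 lower and a median of 0.37. GDF15, a secreted stress hormone, was at 190 and 179 CPM in control, 1125 and 1272 CPM in YT and 352 and 295 CPM in cGAS_YT cells (-1.89 ± 0.10, adjusted p = 3.04e-10). The kinase PLK2 and the stress protein TP53INP1 also fell (-1.70 ± 0.09 and -1.02 ± 0.09), whereas FDXR, a mitochondrial reductase, rose from 37.03 and 40.5 to 77.8 and 79.4 CPM (1.003 ± 0.09). Of 15 senescence-associated genes 4 rose and 6 fell; CAV1, the coat protein of caveolae, rose from 629.7 and 635 to 1123 and 1187 CPM (0.87 ± 0.08). Among the inhibitors of cyclin-dependent kinases, CDKN2C rose (0.53 ± 0.19) and CDKN2B fell (-0.34 ± 0.13), but the call of CDKN2C was lost without YT replicate 3 or cGAS_YT replicate 9, and that of CDKN2B without YT replicate 3 or either cGAS_YT library.

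Matrix genes rose more often than they fell. Of 27 collagens and collagen-modifying enzymes 13 rose and 7 fell (median 0.29), and of 23 other matrix genes 13 rose and 3 fell (median 0.49), 2 of 22 without HAPLN1, which entered the test through the YT libraries alone and is named after its values were seen. COL11A1, a fibrillar collagen, went from 2.17 and 1.96 to 17.4 and 16.6 CPM (2.56 ± 0.19) and the cross-linking enzyme LOXL1 from 151 and 162 to 429.6 and 424 CPM (1.44 ± 0.08). THBS1, a matrix protein that activates latent TGF-beta, was at 543 and 469.6 CPM in control, 156 and 129 CPM in YT and 516 and 471 CPM in cGAS_YT cells (1.79 ± 0.10). ELN, FBLN5 and LUM, for elastin, an elastic fibre protein and a collagen-binding proteoglycan, rose by 1.01 ± 0.11, 0.82 ± 0.09 and 0.97 ± 0.11. The fibroblast markers PDGFRA and THY1 moved apart, PDGFRA falling from 1019 and 691 to 416 and 496 CPM and THY1 rising from 419 and 494 to 679.7 and 772 CPM.

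Proteases and their regulators fell in 10 of 20 members and rose in 6. MMP14, a membrane-bound collagenase, went from 867 and 791 to 245 and 266 CPM (-1.70 ± 0.09) and TIMP3, an inhibitor of such enzymes, from 1012 and 1044 to 253 and 266 CPM (-1.98 ± 0.08). In the TGF-beta list 5 of 19 rose, 8 without YT replicate 3, and 7 fell: TGFB2 rose from 3.01 and 3.50 to 17.6 and 15.6 CPM, and TSC22D1 and INHBA, the activin A subunit, fell (-0.95 ± 0.08 and -0.74 ± 0.08).

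Growth factor genes held some of the largest single changes. IGF1, insulin-like growth factor 1, was at 0.363 and 0.795 CPM in control, 0.475 and 0.669 CPM in YT and 29.4 and 34.3 CPM in cGAS_YT cells (4.38 ± 0.22, adjusted p = 2.68e-10), with no overlap. Its carriers IGFBP3 and IGFBP5 rose by 1.77 ± 0.15 and 0.87 ± 0.11, and 6 of 13 members of the IGF system rose while 2 fell, 1 without YT replicate 4. HMGA2, a chromatin protein of fetal and tumour cells, fell from 542 and 525 to 29.7 and 41.9 CPM (-3.88 ± 0.12, adjusted p = 7.50e-13), where control cells held 731 and 754 CPM. HMGA1 and ARID3B fell too (-0.96 ± 0.10 and -1.25 ± 0.21), while MEST, an imprinted gene of fetal growth, rose from 7.29 and 3.60 to 57.2 and 60.1 CPM (3.27 ± 0.19), near its control level of 66.01 and 81.1 CPM. EDN1, the vasoconstrictor endothelin 1, rose from 2.22 and 1.13 to 36.5 and 28.9 CPM (3.68 ± 0.18). PALMD, a membrane-associated protein, was listed at 0 in both YT libraries and at 13.7 and 9.65 CPM in cGAS_YT cells, at least 74.8-fold higher than the worth of 3 reads per library.

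Genes of cholesterol synthesis rose together. Of 24 members 20 rose and 1 fell, with a median of 0.85. HMGCS1, which makes the first committed intermediate of the pathway, was at 59.5 and 58.2 CPM in control, 91.5 and 110.3 CPM in YT and 357 and 354 CPM in cGAS_YT cells (1.81 ± 0.09, adjusted p = 2.68e-10). CYP51A1 and MSMO1, which demethylate lanosterol and its products, rose by 1.48 ± 0.11 and 1.43 ± 0.09. The cGAS_YT libraries exceeded both the YT and the control libraries for each of these 3 genes. The member that fell was INSIG1, which retains the sterol sensor in the endoplasmic reticulum (-0.58 ± 0.11), named after its value was seen. Without cGAS_YT replicate 9, 2 members fell. In glycolysis 4 of 22 members rose, 2 without cGAS_YT replicate 9, and 8 fell, with 3 lower without YT replicate 4 and 4 and 5 lower without cGAS_YT replicates 10 and 9; the glucose transporter SLC2A3 fell from 278 and 312 to 129 and 129.9 CPM (-1.18 ± 0.08) and PFKP, a phosphofructokinase, rose (0.60 ± 0.10).

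Stress, secretory and lysosomal genes were lower as groups. Of 19 genes of the integrated stress response 11 fell and 2 rose (1 without either cGAS_YT library; median -0.44). CHAC1, which degrades glutathione, fell from 579.5 and 680.5 to 115 and 144 CPM (-2.28 ± 0.11), the transcription factor CEBPB from 444 and 327 to 110.2 and 109 CPM (-1.79 ± 0.11), and the amino acid transporter SLC7A5 from 93.2 and 88.3 to 32.96 and 41.2 CPM (-1.28 ± 0.10). Of 16 chaperones of the endoplasmic reticulum 10 fell and none rose (1 rose without YT replicate 3); HSPA5 (BiP) and SDF2L1 fell (-0.63 ± 0.09 and -1.36 ± 0.13). Of 21 lysosomal genes 13 fell and 1 rose (2 without YT replicate 3, none without any 1 of the other 3 libraries), HEXA, a subunit of beta-hexosaminidase, going from 97.6 and 106 to 34.6 and 27.4 CPM (-1.69 ± 0.11). Ribosomal protein genes fell in 13 of 27 members with a median of only -0.25, and this count was 21 without YT replicate 3, 8 without YT replicate 4 and 3 without cGAS_YT replicate 9. Of the 13 transcripts of the mitochondrial genome 3 rose, MT-ND1 from 416 and 335 to 694 and 560.3 CPM, and 1 rose without YT replicate 4.

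One heptamer in the 3′ untranslated region (3′ UTR), GCATTCA, is printed here because it was chosen from the cGAS and control libraries, where it ranked first of 13643 heptamers for a lower level of the genes that carry it (a mean difference of -0.212 on the log2 scale). The 9546 genes examined averaged 5 CPM or more and had a GENCODE 29 UTR of 50 bases or longer. In cGAS_YT against YT cells, which are other libraries, 22.3% of the 8419 genes without the heptamer fell. Of 950 genes with 1 site 36.3% fell, and of 177 with 2 or more sites 48.6%. The median log2 change was 0.01, -0.12 and -0.33 in the 3 classes. UTR length differed between them, with medians of 1344, 3215 and 4979 bases. Within UTRs of 1000 to 3000 bases, 20.3% of genes without a site and 39.2% of those with a site fell. Among the heptamers carried by 200 genes or more, GCATTCA again had the lowest mean difference (-0.227, adjusted for UTR length and GC content, as was the value above). In the STING_YT and YT libraries it ranked 5724th of 13643 (-0.01), and 22.6%, 23.5% and 27.1% of the 3 classes were lower there. No p-value is attached, since genes are not independent replicates. Capitals mark the heptamer, on the transcript's strand and numbered from the first base of the 3′ UTR:
HMGA2, from base 2972 of 7421: ttagggctaaaGCATTCAgaatcatcttc
NFKB1, from base 391 of 708: agcatcattttGCATTCAaattaagggtt
MMP3, from base 176 of 325: gttattacaggGCATTCAaatgggctgct
HEXA, from base 153 of 3158: tgctggcgctcGCATTCAataaagagtaa
IGF1, from base 2195 of 6633: tgaattatccaGCATTCAgatctttctag
The first 4 of these genes fell and IGF1 rose, as did THBS1 and LUM, which carry 1 site each. CXCL1, CXCL8, IL1A, IL1B, PTGS2, PLAT and MYL6 carry none. The sources used here do not give the siRNA sequences, and the part of the heptamer in these changes was not tested.

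**Figure D4:**
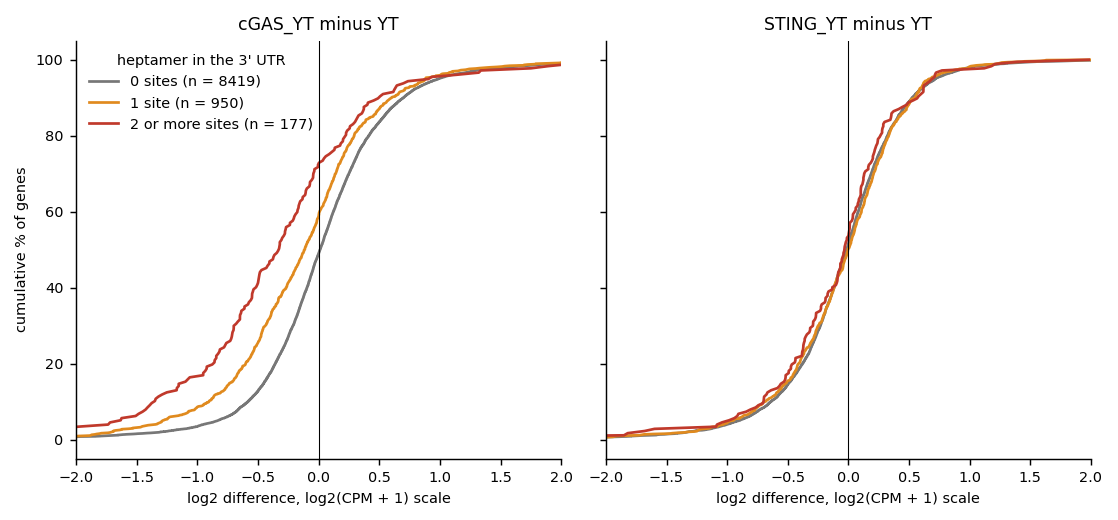
Cumulative share of genes against the log2 change, for genes with 0, 1 or at least 2 copies of GCATTCA in the 3′ UTR (8419, 950 and 177 genes), in cGAS_YT against YT (left) and STING_YT against YT (right). The curves separate on the left, with medians of 0.01, -0.12 and -0.33, and run close together on the right.

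The same siRNA was compared in cells with YAP and TAZ intact, cGAS against control, which share no library with the comparison above. There 1543 genes (11.1%) were higher and 1985 (14.3%) lower. Of the 2848 genes that rose in YAP/TAZ-depleted cells 1005 (35.3%) also rose in the intact cells and 103 (3.62%) fell there. Of the 2808 that fell, 1185 (42.2%) also fell and 58 (2.07%) rose. Read from the other side, the shared genes were 65.1% of those that rose and 59.7% of those that fell with YAP and TAZ intact. Across the 13894 genes the log2 changes correlated at r = 0.559 (Spearman's rho 0.531), a description over genes that share libraries within each comparison. Interferon-induced effectors were the clearest shared group, with 35 of 37 higher in intact cells, and cholesterol synthesis another, with 19 of 24. IFI44L was at 7.21 and 8.52 CPM in control and 472 and 441 CPM in cGAS cells, and HMGCS1 at 59.5 and 58.2 and 229.9 and 217 CPM. PLAT, MYL6 and HMGA2 fell in both settings, with log2 changes of -2.65, -2.67 and -3.06 in intact cells beside -4.20, -2.56 and -3.88 in depleted ones.

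Whether the effect differed between the settings was tested as an interaction, the change in YAP/TAZ-depleted cells minus the change in intact cells. It was positive in 1042 genes (7.50%) and negative in 824 (5.93%) by limma. These counts were 1914 and 1334 without YT replicate 3, 636 and 470 without cGAS replicate 7, and 659 and 524 without cGAS replicate 8. Of the positive genes 794 rose in YAP/TAZ-depleted cells, and of the negative genes 680 fell there. The most negative were CXCL8 (-7.63 ± 0.56), CXCL1 (-6.88 ± 0.56), PTGS2 (-6.43 ± 0.33), IL24 (-5.75 ± 0.35) and IL1B (-5.60 ± 0.40). CXCL8 was at 0.727 and 1.65 CPM in control and 8.37 and 4.61 CPM in cGAS cells, a rise in intact cells (1.76 ± 0.40, adjusted p = 0.00351) that adds to the size of its interaction. PTGS2 was also low in control cells, as given above. Its interaction exceeds its change in depleted cells (-4.61), so part of it is a higher level with the cGAS siRNA in intact cells. Of the 6 CXC chemokines 2 rose in intact cells. NFKBIA was at 203 and 199 CPM in control and 208 and 201 CPM in cGAS cells, and its interaction was -2.20 ± 0.13 (adjusted p = 2.43e-08). All 6 CXC chemokines, 7 of 12 interleukins and related cytokines and 10 of 12 NF-kB inhibitors and survival genes had a negative interaction. The 6 CXC chemokines together held only 4.62 and 2.44 CPM in the control libraries, and IL1A and IL1B were also very low there. Such genes had little room to fall in intact cells on the log2(CPM + 1) scale. For those that did not rise in intact cells, the negative interactions therefore do not show that the siRNA acts differently in the 2 settings. CXCL8 was called higher in intact cells and lower in depleted ones, but at low levels in control and cGAS cells.

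The most positive interactions were those of OXTR (3.89 ± 0.16), MEST (3.51 ± 0.26), SHISA3 (2.96 ± 0.34), CDC42EP3 (2.92 ± 0.13) and KCNJ2 (2.90 ± 0.34). CDC42EP3, an effector of the GTPase CDC42, was at 290.3 and 319.9 CPM in control and 299 and 301 CPM in cGAS cells but at 37.8 and 37.7 CPM in YT and 286 and 291 CPM in cGAS_YT cells. KCNJ2, an inward rectifier potassium channel, rose from 3.91 and 1.44 to 17.1 and 20.4 CPM in depleted cells and did not change past the threshold in intact ones (-0.39 ± 0.24). The list of direct YAP/TAZ targets held 15 positive and 2 negative interactions of 27, and contractile genes 13 and 0 of 19. Cell cycle genes fell in intact cells, 20 of 28 of S phase and 29 of 30 of G2 and mitosis, and 11 and 14 of them had a positive interaction. LMNB1 likewise went from 29.6 and 31.4 CPM in control to 10.2 and 8.69 CPM in cGAS cells, and its interaction was 1.79 ± 0.26 (adjusted p = 0.000183). LMNB1 was already low in YT cells, as given above. The G2 and mitosis genes summed to 190 and 195 CPM in YT, against 1354 and 1442 CPM in control. For S phase genes the sums were 932 and 1000 CPM against 1590 and 1685 CPM. These genes had less room to fall in depleted cells. Positive interactions that reflect a smaller fall there therefore do not show that the siRNA acts differently in the 2 settings. Of the antiviral effectors 9 of 37 had a negative interaction, MX1 among them (-1.95 ± 0.58, adjusted p = 0.0347), and 0 a positive one.

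**Figure D5:**
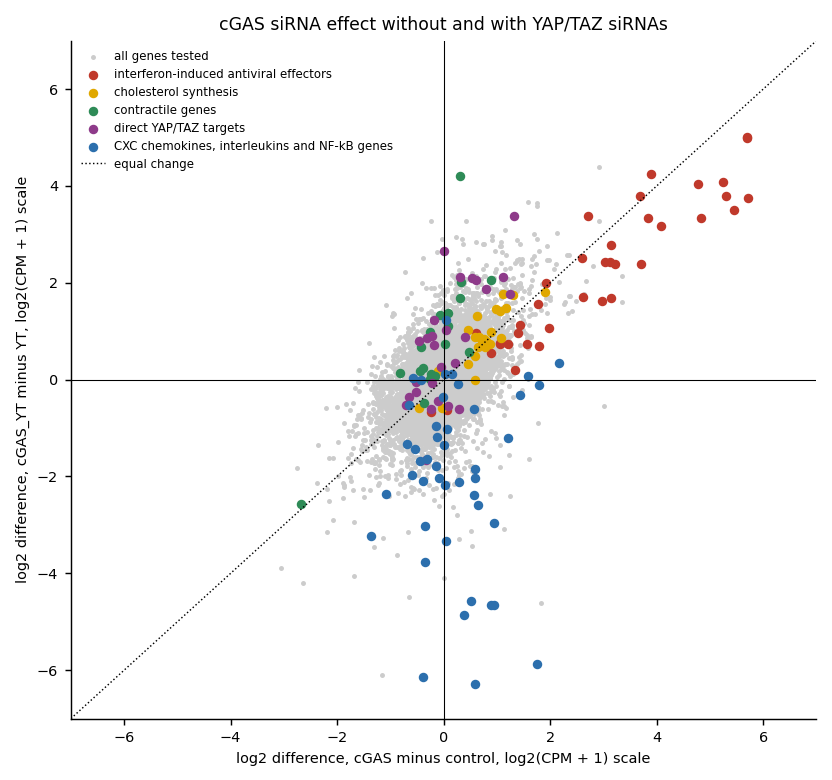
Log2 change of each of 13894 genes with the cGAS siRNA in YAP/TAZ-depleted cells (vertical) against that in cells with YAP and TAZ intact (horizontal), with 5 gene groups coloured. Interferon-induced genes lie high on both axes, whereas the CXC chemokines lie low on the vertical axis only (CXCL1 at -6.28 and 0.60). Their levels in control cells were low and left little room for a fall on the horizontal axis.

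STING acts just below cGAS, so cGAS_YT cells were compared with STING_YT cells, which received the same YAP and TAZ siRNAs. The targeted gene TMEM173 was at 1.28 and 1.93 CPM there, against 25.6 and 20.96 CPM in cGAS_YT cells. In this comparison 2736 genes (19.7%) were higher and 2384 (17.2%) lower in cGAS_YT cells, and 1556 and 1587 were lower without STING_YT replicates 15 and 16. The changes of the 2 siRNAs against YT rest on the same YT libraries and are therefore given only side by side. Of the CXC chemokines 3 of 6 were lower in cGAS_YT than in STING_YT cells and 0 higher, with a median difference of -0.81. Interleukins and related cytokines gave 4 lower and 2 higher of 12, and NF-kB adhesion and effector genes 2 lower and 5 higher of 15. The NF-kB inhibitors and survival genes gave 1 lower and 4 higher of 12. CXCL1 was at 6.66 and 9.81 CPM in STING_YT and 5.67 and 2.59 CPM in cGAS_YT cells, a difference that did not pass (-0.90 ± 0.40, adjusted p = 0.0918). NFKBIA was at 211 and 243 and 224 and 186 CPM (-0.15 ± 0.09, adjusted p = 0.243) and IL1B at 1.89 and 2.03 and 1.65 and 2.23 CPM (-0.02 ± 0.28, adjusted p = 0.971). These p-values do not show that the siRNAs act alike. PTGS2 was higher in STING_YT cells, at 34.98 and 61.1 CPM (-0.86 ± 0.23, adjusted p = 0.0081), as was IL1A (-0.84 ± 0.24).

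Other groups separated the siRNAs. Antiviral effectors were higher in cGAS_YT cells in 34 of 37 members, with a median difference of 1.74: RSAD2 was at 0.777 and 2.44 CPM in STING_YT cells (4.45 ± 0.59), OAS2 at 6.55 and 12.2 CPM (3.43 ± 0.39), MX1 at 31.04 and 50.96 CPM (3.43 ± 0.41) and CXCL11 at 0.444 and 0.559 CPM (3.45 ± 0.47). Cholesterol synthesis was higher in cGAS_YT cells in 22 of 24 members, with a median difference of 1.49. Against YT the median of this list was 0.85 with the cGAS siRNA and -0.75 with the STING siRNA. The integrated stress response went the other way, lower in cGAS_YT than in STING_YT cells in 16 of 19 members and higher in 1, with TRIB3, a pseudokinase induced by ATF4, at 175 and 179 CPM in STING_YT and 30.9 and 36.9 CPM in cGAS_YT cells (-2.36 ± 0.10). Chaperones of the endoplasmic reticulum were higher in cGAS_YT cells in 12 of 16 and lower in 3. Against YT, the median of the stress response list was -0.44 with the cGAS siRNA and 0.49 with the STING siRNA. That of the chaperones was -0.32 and -1.07 in the same order. IGF1 was at 0.666 and 0.457 CPM in STING_YT cells (4.39 ± 0.22), as low as in YT cells. PLAT, MYL6, HMGA2 and EBF1, a transcription factor of stromal and B cells, were the other most negative genes (-2.64 ± 0.10, -2.45 ± 0.10, -2.41 ± 0.12 and -2.35 ± 0.21). MYL6 stood at 1838 and 1797 CPM in STING_YT and 323 and 339.5 CPM in cGAS_YT cells. CYR61 and OXTR rose against YT with either siRNA, CYR61 standing at 137 and 139 CPM and OXTR at 40.8 and 30.3 CPM in STING_YT cells, below the 268 and 259 and 179 and 163 CPM of cGAS_YT cells (0.93 ± 0.13 and 2.25 ± 0.11).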

How the data were processed

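Per the labels' protocols, a QuantSeq kit primed cDNA at the 3′ end of polyadenylated RNA, so a gene's reads do not grow with its length. Alignment with STAR 2.5.3a to hg38, counting with featureCounts and use of edgeR are named in the submitters' processing notes, which give no annotation or strand setting. The deposited signal values are CPM that the authors scaled with TMM factors, as the values show. All of them (100%) were whole multiples of the worth of 1 read within 0.01 reads, so whole reads were recovered. The tests planned for CPM were applied to these scaled values.

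The values were tested with limma 3.58.1 under R 4.3.3 (functions lmFit, contrasts.fit and eBayes, the last with a trend) on the scale log2(CPM + 1). All 12 libraries in 6 groups entered 1 fit, with 6 residual and 10.1 prior degrees of freedom, and each contrast had its own Benjamini-Hochberg adjustment. Symbols are those of the table, of which 12571 of 13937 (90.2%) were found in GENCODE 29 on GRCh38, the source of positions and 3′ UTRs. Promoters came from RefSeq (GRCh38.p14), with 10332 tested genes matched. The members and lists were chosen with earlier results of these data known. The 38 lists held 676 genes, 627 of them tested, and some genes stand in more than 1 list. The naming rule took the targeted genes and, past the threshold, the 12 genes that rose most and the 12 that fell most (average of 5 CPM or more, groups not overlapping). It also took the 4 members with the smallest p in each list, the 5 genes at each end of the interaction and of cGAS_YT against STING_YT, and a set list of cytokines and reporters. The text gives a selection, and other genes it names were chosen after their values were seen.

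The alternatives run changed the pseudocount (0.25 and 4), the filter (none, or 5 CPM), the scaling (median of ratios) or the prior (constant), fitted only the groups compared, left out each library, or used edgeR 4.0.16 or DESeq2 1.42.0 on recovered reads. Scripts were tested on simulated counts.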

Additional observations from a re-analysis of the deposited data

Results flagged for a closer look

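The effect of the cGAS siRNA differed between YAP/TAZ-depleted and intact cells by the interaction test of limma (adjusted p under 0.05) in 1042 genes with a positive and 824 with a negative value. The values below are the log2 change in depleted cells minus that in intact cells for the genes named in the text that passed this test; each group has 2 libraries. CXCL6, CSF3 and HAPLN1 reached the minimum for testing only with the YT libraries, so their values follow in part from that filter. Genes barely expressed in control cells, such as the CXC chemokines, IL1A and IL1B, had little room to fall in intact cells. Where such a gene did not rise in intact cells, its negative value therefore does not show a differing effect. LMNB1 was likewise already low in YT cells, so its positive value does not show one either. The difference was negative for CXCL8 (-7.63), CXCL1 (-6.88), PTGS2 (-6.43), IL24 (-5.75), IL1B (-5.60), CXCL3 (-5.55), IL1A (-5.26), CXCL5 (-5.08) and C11orf96 (-4.94). Also negative were STC1 (-4.20), SLC16A6 (-4.09), TNFSF15 (-3.91), G0S2 (-3.84), EREG (-3.65), AREG (-3.59), CXCL2 (-3.41), TNFAIP3 (-3.37) and CXCL10 (-3.25). Further negative values were those of CCL2 (-3.05), CXCL6 (-2.96), SOD2 (-2.69), IER3 (-2.44), ICAM1 (-2.41), GDF15 (-2.41), PTGES (-2.31), PLA2G4A (-2.26) and NFKBIA (-2.20). The negative values went on with OAS2 (-1.97), MX1 (-1.95), MMP3 (-1.88), NFKB2 (-1.76), BIRC3 (-1.71), RELB (-1.71), PLAT (-1.55), PLK2 (-1.54) and IFI27 (-1.50). Smaller negative values were those of IKBKE (-1.48), IL32 (-1.39), SLC2A3 (-1.36), CSF3 (-1.34), NFKB1 (-1.34), TNIP1 (-1.27), IL11 (-1.24), CDKN2B (-1.20) and RGS5 (-1.17). Among the smallest negative values were CEBPB (-1.11), SPRY4 (-1.10), SDF2L1 (-1.10), HAPLN1 (-1.08), JUNB (-0.94), PHLDA1 (-0.92), IRF1 (-0.90), CHAC1 (-0.89) and IKBKB (-0.86). Among the smallest negative values were HMGA2 (-0.82), TIMP3 (-0.79), TSC22D1 (-0.75), TAPBP (-0.69), HSPA5 (-0.68), IFITM3 (-0.68), IFNAR1 (-0.67), SOCS3 (-0.66) and EGFR (-0.66). Among the smallest negative values were BCAR1 (-0.62), INSIG1 (-0.54), SLC7A5 (-0.50), INHBA (-0.48) and MMP14 (-0.40). The difference was positive for OXTR (3.89), MEST (3.51), SHISA3 (2.96), CDC42EP3 (2.92), KCNJ2 (2.90), CYR61 (2.66), EDN1 (2.10), ANKRD1 (2.05) and PALMD (1.89). Also positive were THBS1 (1.84), LMNB1 (1.79), TYMS (1.72), LMOD1 (1.68), VGLL3 (1.58), IGF1 (1.47), TGFB2 (1.44), ACTA2 (1.42) and ACTG2 (1.38). Further positive values were those of TSLP (1.19), ACTN4 (1.15), CDKN2C (1.15), LIMA1 (1.12), GADD45A (1.09), RBL1 (1.06), CAV1 (1.06), CTGF (0.98) and LOXL1 (0.91). The positive values went on with COL11A1 (0.87), YAP1 (0.86), LMNB2 (0.85), FDXR (0.82), KRT19 (0.82), SUN1 (0.77), RRM2 (0.70), IGFBP5 (0.64) and ARPC5 (0.47). Smaller positive values were those of FBLN5 (0.47), TNS1 (0.45) and THY1 (0.44).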

How the results depend on the processing

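The counts of genes higher and lower in cGAS_YT than in YT cells, 2848 and 2808, stayed within 1.5 times under every alternative run: 2764 and 2804 with edgeR and 2617 and 2765 with DESeq2 on recovered reads, 1948 and 1894 in a fit of only these 4 libraries, and 2046 to 3163 and 2095 to 2914 with 1 library left out. Of 5656 genes called, edgeR kept 96.7% in the same direction, DESeq2 93.9% and the fit of only these libraries 67.8%. Median of ratios scaling gave 2800 and 2860. The counts of positive and negative interactions, 1042 and 824, ranged from 636 to 1914 and from 470 to 1334 with 1 library left out, the highest without YT replicate 3 and the lowest without cGAS replicate 7. Genes higher in cGAS_YT than STING_YT cells ranged from 1962 to 2171 and lower ones from 1556 to 1870 with 1 library left out. Of 178 named genes, edgeR changed no call, DESeq2 2 and the fit of only these libraries 3. LIF and CSF1 turned direction without YT replicate 4, to -1.38 and -0.33, and were past the threshold without YT replicate 3, at 1.60 and 0.39. MT-ND2, MT-ND4L and KRT18 lost their calls without YT replicate 4, MT-ND4L also without either cGAS_YT library, RPL4 without cGAS_YT replicate 9, and MT-ND4 gained one without YT replicate 3; the cause was not tested. No paired analysis was possible because each replicate number occurs once. With 2 libraries a group, leaving a library out leaves 1, assumed to vary as libraries of other groups do. Genes under about 1 CPM rest on few reads, and siRNA sequences and culture identity limit what the groups model.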
